A study of Mus musculus with 2 samples.

Results

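The mRNAs of 8 ribosomal protein genes were examined in RNA that co-immunoprecipitated with Mov10 from postnatal mouse brain: Rpl5, Rpl6, Rpl7a, Rpl13, Rpl31, Rps24, Rps26 and Rps27rt. RNA immunoprecipitation recovers a protein together with the RNA attached to it. Brains of 28 WT C57bl/6 pups at postnatal day 2 were pooled, cleared with an irrelevant antibody and then immunoprecipitated with an antibody to Mov10. The RNA of this IP was sequenced as 1 library beside 1 library of total input RNA, so no replicate measures the spread between brains, and pooling leaves no value for a single pup. The brains were not UV cross-linked. A library of the irrelevant IP was also made, but the paper calls its contribution negligible and left it out. The ratios here therefore set the Mov10 IP against the input only. A peak was assigned to a gene where it shared at least 1 base with an exon on the strand opposite the one listed for the peak. By this rule, 10 of the 2296 peaks of the list belonged to the 8 genes. Of all the peaks, 657 lay over exons of 449 protein-coding genes on the nuclear chromosomes, and these served for comparison.

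Ribosomal proteins are the structural subunits of the ribosome, and their mRNAs are among the most abundant in growing cells. Cells make them together, through a pyrimidine tract at the 5′ end that couples their translation to nutrient signals. Their abundance has also made them a common template for reverse transcription, and the mouse genome is scattered with intronless copies of them, most of which are processed pseudogenes. Mov10 is an RNA helicase of superfamily 1 that prefers G-rich structures and works with the RNA-induced silencing complex.

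The genes were chosen by their peaks, from a list made by comparing the IP with the input. A ratio above 1 was therefore selected on, and the ratios are given as a description with no test. Each ratio sets the share of aligned IP reads that fell in a peak against the same share of input reads. The interval beside each ratio is an exact conditional binomial interval at 95%. It speaks for counting error in these 2 libraries and for nothing else.

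The sequences show how much of the signal can be assigned to a gene. The coding bases under the Rps27rt peak, at chr9:114982561-114982707 on the minus strand, are shown because every base is also found in spliced Rps27 on chromosome 3. Those under the Rpl13 peak at the start of the coding sequence, at chr8:123102659-123102986 on the plus strand with an intron removed, are shown because the pseudogene Gm12918 carries all 246 of them. Those under the downstream Rpl7a peak, at chr2:26912026-26912159 on the plus strand, are shown because the pseudogene Rpl7a-ps11 carries all 134. All are GENCODE M21 transcript sequences on GRCm38, 5′ to 3′ in the sense of the mRNA.
Rps27rt: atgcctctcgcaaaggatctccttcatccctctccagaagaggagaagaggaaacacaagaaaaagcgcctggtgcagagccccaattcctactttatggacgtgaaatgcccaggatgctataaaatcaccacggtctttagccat
Rpl13 peak 1: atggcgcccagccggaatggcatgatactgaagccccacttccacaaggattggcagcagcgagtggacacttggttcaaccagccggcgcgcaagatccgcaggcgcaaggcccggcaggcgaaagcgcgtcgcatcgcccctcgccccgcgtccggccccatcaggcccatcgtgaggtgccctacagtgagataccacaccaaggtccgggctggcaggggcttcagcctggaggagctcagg
Rpl7a peak 2: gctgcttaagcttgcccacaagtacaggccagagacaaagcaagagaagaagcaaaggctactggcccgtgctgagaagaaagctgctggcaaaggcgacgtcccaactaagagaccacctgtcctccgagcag

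At other peaks a few bases tell the gene from the copy shown here, and further copies of the same stretches are not shown. The upstream Rpl7a peak, with 150 coding bases at chr2:26911422-26911571, and the same stretch of the pseudogene Gm17415 at chr1:93421812-93421961 share 145 bases and both carry a peak. The Rps26 peak, with 131 coding bases at chr10:128625207-128625337 on the minus strand, differs at 1 base from Rps26-ps1, a pseudogene on chromosome 8 whose own peak lies over another part of the sequence. Capitals mark the bases that differ, counted from 1 at the 5′ end of each run with the member's base first: G32T, A62G, C69A, C79T and T80C for Rpl7a and Gm17415, and G89A for Rps26 and Rps26-ps1.
Rpl7a peak 1: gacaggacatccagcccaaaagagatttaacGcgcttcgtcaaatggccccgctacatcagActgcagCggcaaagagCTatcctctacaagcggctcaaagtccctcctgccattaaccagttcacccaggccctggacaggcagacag
Gm17415: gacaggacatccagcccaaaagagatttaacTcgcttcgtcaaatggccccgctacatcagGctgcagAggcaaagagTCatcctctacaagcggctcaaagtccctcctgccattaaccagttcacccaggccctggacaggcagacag
Rps26: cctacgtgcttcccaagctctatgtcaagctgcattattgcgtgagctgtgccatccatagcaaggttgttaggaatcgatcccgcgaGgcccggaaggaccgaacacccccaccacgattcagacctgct
Rps26-ps1: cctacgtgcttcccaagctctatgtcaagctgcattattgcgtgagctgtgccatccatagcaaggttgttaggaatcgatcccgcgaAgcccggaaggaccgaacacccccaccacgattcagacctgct

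The 10 peaks fell into 3 kinds by their reads. At 7 of them the IP held between 3378 and 7101 reads and the input between 160 and 635, giving ratios from 7.20 to 29.8. At the downstream Rpl7a peak and the upstream Rpl13 peak the input was nearly empty, with 1 and 11 reads. At Rps27rt both libraries were deep. The median gene ratio, computed on summed peaks with 0.5 reads added to each count, was 15.4 (2.08 to 29.7, from order statistics, n = 8 genes). The median over all 449 genes was 14.6 (13.6 to 15.6), and 4 of the 8 members lay above it. Rpl7a counts among these through its downstream peak with 1 input read, since its upstream peak alone had 13.1 (11.6 to 14.9). Rpl13, at 16.6, counts among them through its upstream peak with 11 input reads, since its downstream peak alone had 7.20 (6.63 to 7.83). With only peaks of at least 10 input reads, which keeps both Rpl13 peaks, the member median was 13.7. The median over exonic mRNA peaks was 14.5, and 6 of the 10 member peaks lay below it. By ratio the members thus sat around the middle of the mRNAs in the list. By reads they lay higher, as all 10 member peaks had more IP reads than the median exonic mRNA peak. The median was 5273.5 IP reads for member peaks and 1766 for exonic mRNA peaks, and 261 and 104 reads in the input.

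**Figure D1:**
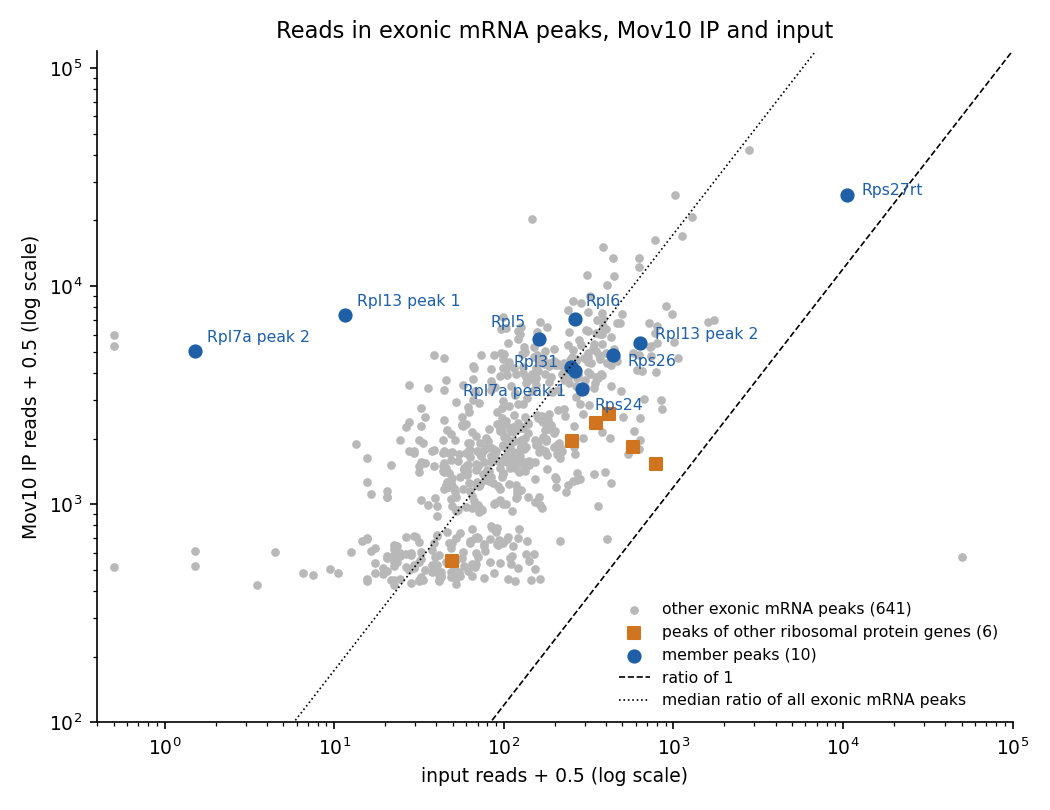
Reads of the Mov10 IP (vertical axis) against reads of the input (horizontal axis), each plus 0.5 and on a log scale, for the 10 member peaks (blue), 6 peaks of other ribosomal protein genes (orange squares) and all other exonic mRNA peaks (grey). The dashed line marks a ratio of 1 and the dotted line the median ratio of 14.5; 7 member peaks lie in the main cloud, while Rpl7a peak 2 and Rpl13 peak 1 lie far to its left and Rps27rt far to its right.

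All 10 member peaks had a ratio interval above 1, as had 99.8% of the 657 exonic mRNA peaks. With the reads within chromosome peaks as totals in place of aligned reads, 9 of the 10 kept such an interval and Rps27rt did not. All 10 also passed the adjusted p of 0.05 that the authors' peak caller gave, beside 89.8% of exonic mRNA peaks. By the caller's empirical false discovery rate (eFDR), none of the 10 passed 0.05, against 37.7% of exonic mRNA peaks, and the member values ran from 0.364 to 0.909. At Rpl5 and Rpl6, which share a strand of chromosome 5, it was 0.455 for both. It was 0.478 at both Rpl7a peaks, and 0.364 and 0.391 at the Rpl13 peaks. Both measures largely went by whole strands of a chromosome. Of 32 strands with peaks, every peak passed the adjusted p on 25 and none on 4. The eFDR was 0.455 at every peak on the strand of Rpl5 and Rpl6, and 0.909 on that of Rps24. The counts of member peaks that passed are thus not separate results for each gene.

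Among proteins of the large subunit, Rpl5 had 5719 reads in the IP and 160 in the input, a ratio of 29.8 (25.5 to 35.1). This was the highest among the member peaks with over 11 input reads, and 109 of the 657 exonic mRNA peaks had a higher one. Rpl5 binds the 5S ribosomal RNA and carries it into the assembling large subunit. Its peak, at chr5:107907901-107908105 on the minus strand, lay wholly in an exon and crossed the stop codon, with 93 coding bases and 112 bases of 3′ UTR. Fam69a has an exon on the same strand as the peak. The pseudogene search found 1 copy at 95% identity over at least 100 bases, and 64.1% of the 50-base windows of the peak occurred in another annotated gene.

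Rpl6 had 7101 IP reads and 261 input reads, a ratio of 22.7 (20.0 to 25.8). Rpl6 is a structural protein of the same subunit. Its peak at chr5:121206661-121206865 covered 144 coding bases in the middle of the mRNA, with the other 61 bases in introns of the coding transcript. Copies numbered 5, and 42.1% of windows were shared.

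Rpl31, which lies near the exit of the tunnel for the nascent chain, had 4254 IP reads and 248 input reads, a ratio of 14.3 (12.6 to 16.3). The peak at chr1:39371001-39371200 is read differently by different transcripts. In 1 coding transcript all 200 bases are exonic, 107 of them coding, whereas across the 5 coding transcripts the exonic part went down to 58 bases with the rest in an intron. The search used the transcript in which all 200 bases are exonic. For it no copy reached 100 bases at 95% identity, and 11.3% of windows were shared. The sequence under a peak on the pseudogene Rpl31-ps16 nonetheless matched Rpl31 at 98.0% identity over 202 bases.

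Rpl7a, a protein of the large subunit with relatives in archaea, had a pair of peaks that lay side by side in the spliced mRNA. The upstream peak at chr2:26911351-26911575 had 4103 IP reads and 261 input reads, a ratio of 13.1 (11.6 to 14.9). The downstream peak at chr2:26912026-26912250 had 5064 IP reads and 1 input read, a ratio of 4221 with a counting interval from 757 to 166766. The IP counts of the pair were alike in size, whereas the input fell from 261 reads to 1. The downstream peak also overlapped Gm22879, a small nucleolar RNA encoded in the intron. Copies at 95% identity numbered 32 for the upstream and 64 for the downstream peak, and 50.5% and 100% of windows were shared.

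Rpl13 likewise had 2 peaks. The upstream peak at chr8:123102601-123103000 spanned 2 exons, with 246 coding and 6 bases of 5′ UTR, and had 7403 IP reads and 11 input reads, a ratio of 561 (313 to 1124). The downstream peak at chr8:123105201-123105400 had 5483 IP reads and 635 input reads, a ratio of 7.20 (6.63 to 7.83). Only 44 of its 200 bases were exonic, all in the 3′ UTR, and 156 lay past the annotated end of the gene. The upstream peak shared 97.0% of its windows with other genes and had 7 copies, whereas the exonic part of the downstream peak was too short to search. With a ratio of 561 at the upstream peak and 7.20 at the downstream peak, the value for the gene, 16.6 (15.4 to 18.0), depends on how they are joined.

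**Figure D2:**
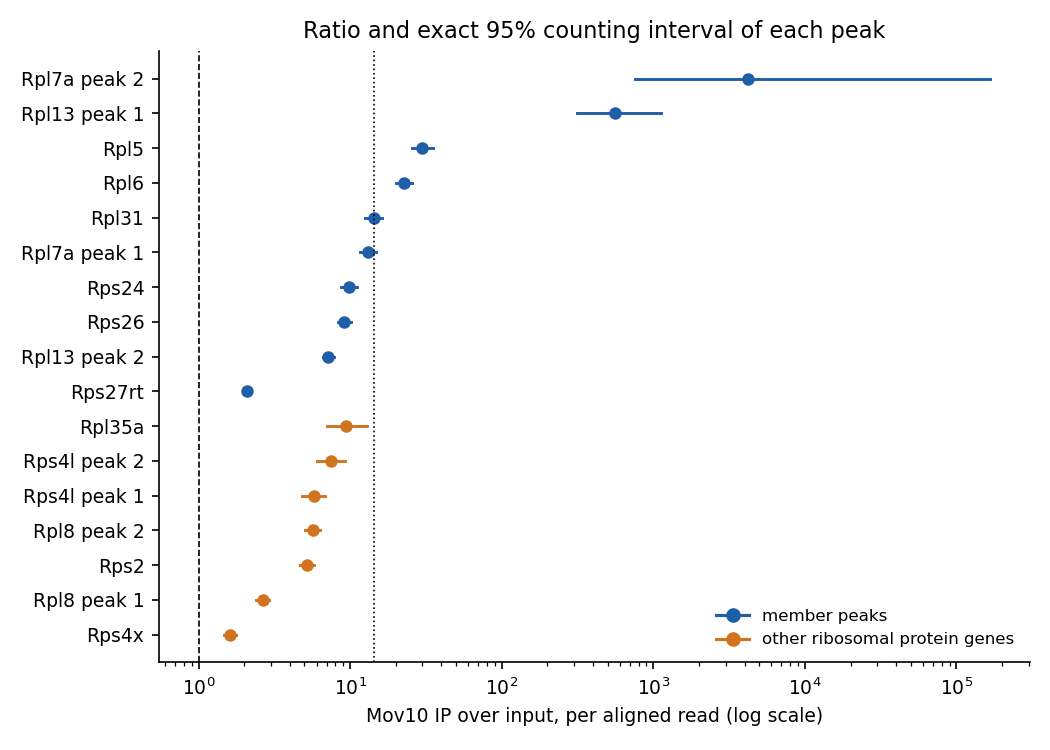
Ratio of the Mov10 IP to the input per aligned read, on a log scale, for each member peak (blue) and the described peaks of other ribosomal protein genes (orange). Points are ratios and bars exact 95% counting intervals, with the dashed line at 1 and the dotted line at the median of 14.5 over exonic mRNA peaks; Rpl7a peak 2, with 1 input read, has the widest bar, and every orange point lies left of the dotted line.

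Among proteins of the small subunit, Rps24 had 3378 IP reads and 288 input reads, a ratio of 9.78 (8.67 to 11.1). Rps24 takes part in the maturation of the small subunit and is mutated in Diamond-Blackfan anemia, as are Rpl5 and Rps26. Its peak at chr14:24493276-24493500 covered 111 coding bases in each of its 5 coding transcripts, with 114 bases in introns of those transcripts. Over all annotated transcripts of the gene, noncoding ones included, 225 bases of the peak were exonic. It had 6 copies and 72.6% shared windows. Rps26, which lies at the channel through which mRNA leaves the ribosome, had 4816 IP reads and 441 input reads at chr10:128625121-128625380, a ratio of 9.10 (8.26 to 10.1). Of that peak 131 bases were coding and 129 intronic. The intervals of Rps24 and Rps26 overlapped, as did those of Rpl31 and the upstream Rpl7a peak, so neither pair differed by more than counting error.

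Rps27rt had the most reads of the members in both libraries. It is annotated as an intronless copy of Rps27, whose protein carries a zinc finger. The IP held 26278 reads and the input 10556, a ratio of 2.08 (2.03 to 2.12), and 653 of the 657 exonic mRNA peaks had a higher one. With the reads within chromosome peaks as totals the ratio was 0.980 (0.958 to 1.002), so its direction depends on the totals. Only 1 exonic mRNA peak had more reads in the IP, and only 1 had more in the input. Scaled to 1000000 aligned reads this was 367 in the IP and 177 in the input, whereas the input values of the other member peaks reached at most 10.7. In bulk tissue, the number of cells that hold an RNA and its amount per cell cannot be told apart. Rps27rt held 35.7% of the IP reads of all member peaks and 82.1% of the input reads. Over all member peaks pooled the ratio was 4.77 (4.68 to 4.86), and without Rps27rt it was 17.1 (16.4 to 17.8).

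Over the 341 of 374 transcript bases that could be compared, Rps27rt and Rps27 were identical, with no mismatch in the coding sequence or in the part of the transcript under the peak, so reads within these bases cannot be told apart. The Rps27 gene has 4 exons in this transcript and lies on the minus strand of chromosome 3, and no peak of the list lies on the plus strand of that chromosome. The peak began at the annotated transcript start and covered 32 bases of 5′ UTR and 147 coding bases, and it reached 41 bases upstream of the gene, which were not compared with Rps27. In the RefSeq promoter table, built on GRCm38.p6, the Rps27rt transcript opens with a pyrimidine tract, shown in capitals with the bases that follow it (chr9:114982720-114982739, minus strand).
Rps27rt start: CTTTCCggcggtgacgacct

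A start with C followed by at least 4 further C or T, read on the sense strand at the annotated start, was found for 1 of the 8 members, Rps27rt. The same tract was found for 15 of 59 ribosomal protein genes matched by symbol in that table and for 2.67% of 17492 protein-coding genes. At the other 7 members the annotated start does not open with these letters, which says nothing of where transcription starts in brain.

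**Figure D3:**
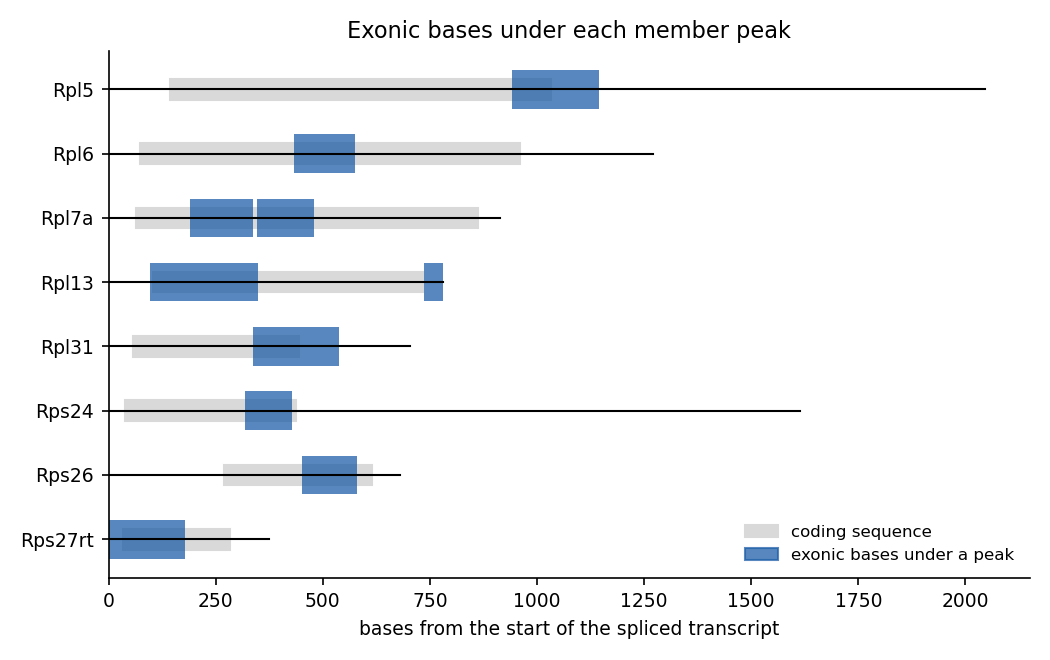
Exonic bases under each member peak (blue), drawn along the spliced transcript with the most bases under the peak, in bases from its start (horizontal axis), with the coding sequence in grey. Each of the 10 peaks except the downstream peak of Rpl13 touches coding sequence, and the Rps27rt peak begins at the transcript start.

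In position, 9 of the 10 peaks held coding bases, and the exonic part of 5 was wholly coding. Over the 9 peaks with at least 100 exonic bases, the median coding share was 100%, against 75% over all 596 exonic mRNA peaks that could be placed in this way. The peaks also ran into introns of the coding transcripts at 6 of 10, though some of those bases are exonic in other annotated transcripts. The part of unspliced RNA in their counts was not tested. Base composition lay close to that of other exonic mRNA peaks. The median GC content was 55.2% for the members and 54% for all 597 peaks of that length, and G made up a median of 24.5% in both. Runs of 3 or more G had a median of 1 per member peak and 2 per peak over all. The folding energy predicted by RNAfold had a median of -24.6 kcal/mol per 100 bases for the members and -27.0 over all. The upstream Rpl13 peak stood at the stable end, with 66.7% GC and -40.6 kcal/mol per 100 bases, and the Rpl5 peak was lowest in GC, at 37.1%. These features were measured on 9 peaks of 8 genes and were not tested.

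Near-identical copies were common among the members. Of the 9 peaks that could be searched, 8 had at least 1 copy at 95% identity, 122 in all. Of the 657 exonic mRNA peaks, 561 shared no 50-base window with another annotated gene, and no member peak was among them. The members counted 3 of the 31 peaks in which 90% or more of windows were shared, namely Rps27rt, the upstream Rpl13 peak and the downstream Rpl7a peak. Those 31 peaks had nearly the same median ratio, 14.5, as the 561 without shared windows, 14.3, but a far wider spread, with an SD of 2.93 against 1.11 on the log2 scale. An input count of 3 reads or fewer was found at 5 of the 31, or 16.1% (5.45 to 33.7, Clopper-Pearson), and at 2 of the 561, or 0.357% (0.0432 to 1.28). Over all exonic mRNA peaks it was 1.07%, and among the members 1 of 10. The 3 member peaks with the most shared sequence thus included the lowest and both of the highest ratios. The part of read assignment in these values was not tested.

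**Figure D4:**
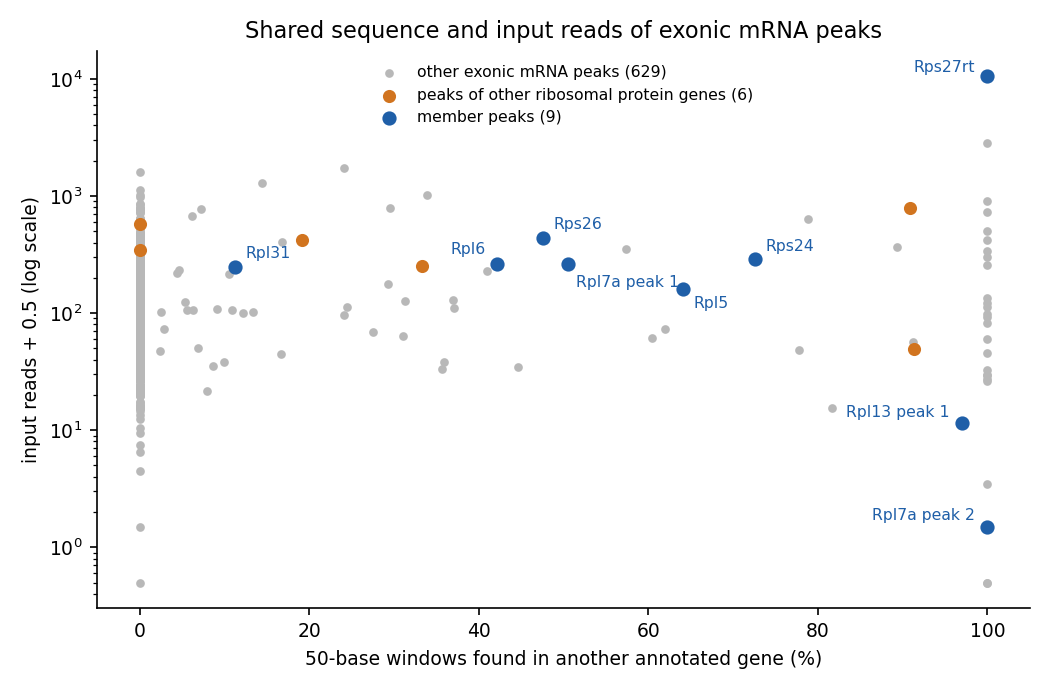
Input reads plus 0.5 (vertical log axis) against the share of 50-base windows of the exonic part of a peak that occur in another annotated gene (horizontal axis, percent), for 9 member peaks (blue), other ribosomal protein genes (orange) and other exonic mRNA peaks (grey). At the right edge the member peaks run from 1 input read at Rpl7a peak 2 to 10556 at Rps27rt, while members with fewer shared windows lie between 160 and 441.

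Some copies had peaks of their own: 5 peaks on copies of 4 members. On Gm17415, at the stretch shown above with the upstream Rpl7a peak, the IP held 6303 reads and the input none. With a floor of 3 reads in the input library the ratio was 1751, and the lower limit of its counting interval was 599. Gm49205, another Rpl7a pseudogene, had 3465 IP reads and 3 input reads, a ratio of 963 (329 to 4671), and its peak matched Rpl7a mRNA from base 293 to base 470. With these the pooled ratio of Rpl7a was 59.6 (52.8 to 67.5), beside 29.2 (25.8 to 33.1) for its own peaks. Rpl31-ps16 had 2570 IP reads and 3 input reads, a ratio of 714 (244 to 3465), and took the pooled ratio of Rpl31 to 22.7 (20.0 to 25.8).

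The other copies had more input reads. Gm7027, a pseudogene of Rpl6, had 4239 IP reads and 214 input reads, a ratio of 16.5 (14.4 to 19.0). Its peak matched Rpl6 mRNA from base 609 to base 800, downstream of the peak in Rpl6 itself. The pooled ratio of Rpl6 was 19.9 (18.2 to 21.9). Rps26-ps1 had 1531 IP reads and 167 input reads, a ratio of 7.64 (6.51 to 9.02), and the pooled ratio of Rps26 was 8.70 (8.01 to 9.47). No peak was found on a copy of Rpl5, Rpl13, Rps24 or Rps27rt.

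**Figure D5:**
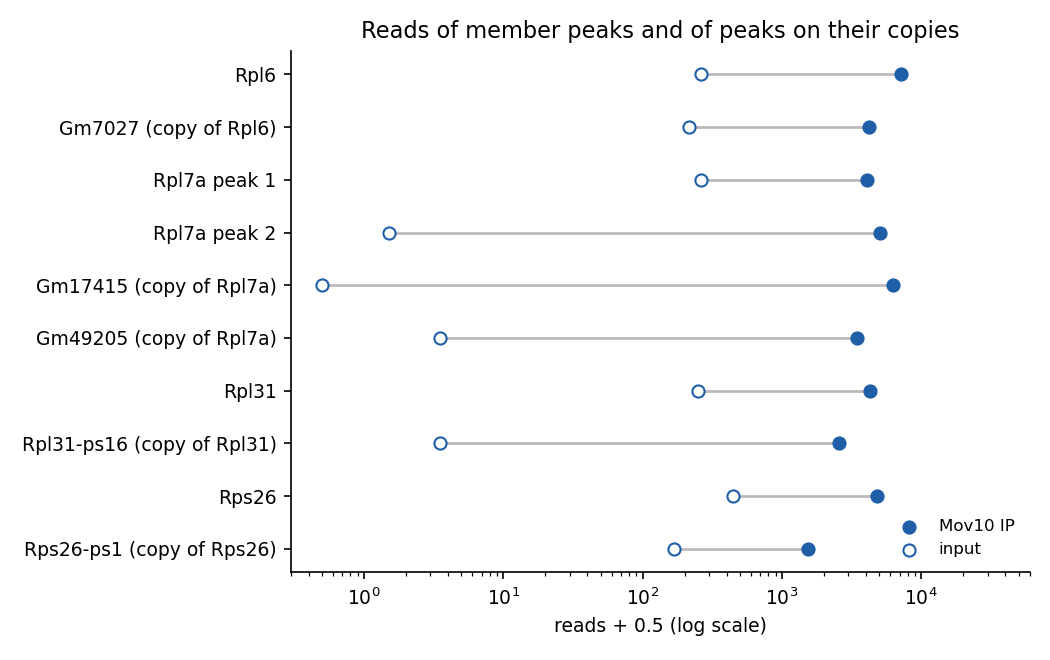
Reads of the Mov10 IP (filled) and of the input (open), each plus 0.5 on a log axis, for the peaks of the 4 members with a peak on a copy and for those copies. IP reads lie between 1531 and 7101 in every line, while input reads are 3 or fewer at Gm17415, Gm49205 and Rpl31-ps16 and at Rpl7a peak 2.

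Of 80 genes for cytoplasmic ribosomal proteins, 12 had an exonic peak, 8 of 47 for the large subunit and 4 of 33 for the small subunit. Only 60 of the 80 lie opposite a chromosome strand that holds any peak in the list analysed here, and 12 of these 60 is 20%. Of 16581 protein-coding genes opposite such a strand, 2.71% had an exonic peak. The fewest IP reads of any listed peak differed between strands, from 226 on a strand of chromosome Y to 20339 on the strand of chromosome 9 that holds Rps27rt, with 4524 on that of Rpl5 and Rpl6. A gene without a peak is not shown to be unbound.

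Other listed genes with a peak had lower ratios than the median mRNA peak, and 4 of them are described here. Rpl8, whose protein lies at the peptidyl transferase center, had 2 peaks with 1833 IP and 578 input reads and with 2355 IP and 347 input reads. Their ratios were 2.64 (2.41 to 2.91) and 5.66 (5.05 to 6.35), and neither had a copy or a shared window. Rps2, at the entry of the mRNA channel, had 2595 IP and 416 input reads, a ratio of 5.20 (4.69 to 5.78). Rpl35a had 551 IP and 49 input reads, a ratio of 9.37 (6.99 to 12.8).

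The X-linked Rps4x had 1527 IP and 791 input reads, a ratio of 1.61 (1.48 to 1.76). Of the paralogs, Rps4l, listed as a pseudogene, had peaks with 1032 IP and 150 input reads and with 888 IP and 99 input reads, at ratios of 5.74 (4.83 to 6.85) and 7.48 (6.07 to 9.30). Of these genes, Rps4x had the lowest ratio.

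Ribosomal protein sequence also lay under peaks outside the exons of these genes. Of the 768 chromosome peaks with an annotated transcript opposite, 26 matched a ribosomal protein mRNA at 90% identity over at least 100 bases, and 23 of them lay over pseudogenes. Their best matches were to 21 genes, 17 of which had no peak in their own exons. A peak of Malat1 and one of Tmem234 are counted here for matches to Rack1 of 118 and 113 bases. These matches do not show that either is a copy of the Rack1 mRNA. Together the 26 peaks, those of Malat1 and Tmem234 included, held 116257 IP reads, with a median ratio of 10.8. The most reads lay on Gm14303, which carries 151 bases of Rps29 without a mismatch. It had 17746 IP reads and 12030 input reads, a ratio of 1.23 (1.20 to 1.26). Rps27rt was the only member with like numbers of reads. Rps6-ps4 had 14902 IP and 690 input reads, a ratio of 18.0 (16.7 to 19.5).

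Among the other copies, Gm13611 for Rpl36 had a ratio of 4.82 (4.50 to 5.16), Gm13408 for Rps3a1 11.7 (10.6 to 13.0) and Gm7434 for Rpl32 16.3 (14.3 to 18.8). A pseudogene of Rpsa on chromosome 17 had 6.32 (5.84 to 6.84). With Gm17415 and Gm7027 given above, these are among the 10 with the most IP reads.

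Outside these lists, the genes whose exonic peak with the most IP reads was nearest to the median of the member peaks were the chaperone gene Hsp90aa1, the 14-3-3 gene Ywhab, the postsynaptic scaffold gene Dlg4, the chromatin protein gene Hmga1b and the ferritin gene Fth1. They were ranked among 436 genes by the Euclidean distance on log2 IP reads and log2 ratio over the 2 libraries. At that peak Hsp90aa1 had 5445 IP and 341 input reads, a ratio of 13.3 (11.9 to 14.9). A second peak of Hsp90aa1, with 4812 IP and 73 input reads, and one of Fth1, with 4831 IP and 362 input reads, did not enter the ranking. Of cell type markers, an exonic peak was found for 5 of 8 for neurons and 3 of 6 for astrocytes and radial glia. It was found for 1 of 5 for the oligodendrocyte lineage, none of 4 for blood cells and none of 4 for microglia. Over all protein-coding genes opposite a chromosome strand that holds any peak, the share was 2.71%. The markers were not limited to such strands, and a marker without a peak is not shown to be absent from the tissue.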

How the data were processed

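RNA from the Mov10 IP and from the input, 1 library each, was aligned by the authors with TopHat2 2.1.1 to unmasked mm10, with up to 2000 alignments kept per read. The authors called peaks with RIPSeeker on each strand, which assigned each read with several alignments to a single place. The deposited counts of reads per peak, adjusted p-values and eFDR were used as they stand. The base caller bcl2fastq 2.17.1.14 and bedtools are also named in the submitters' processing notes.

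Ratios were computed from the deposited counts and the aligned reads of each library that the methods state, with exact conditional binomial 95% intervals, a pseudocount of 0.5 for medians and a floor of 3 reads where the input has none. Counting error is all that the intervals cover, since PCR reads without molecular identifiers are not independent molecules. Exons came from GENCODE M21. The search for copies used BLAST+ 2.17.0 on GENCODE transcripts, pseudogenes included, and not on the genome, so copies without an annotation are missed. Folding was predicted with RNAfold 2.7.2. Other work used Python 3.11.15, numpy 2.4.6, scipy 1.17.1 and matplotlib 3.10.9. The interval was tested on simulated Poisson counts with known ratios, the setting that it assumes. Such counts hold no PCR repeats, no assignment of reads among copies and no choice of peaks by ratio.

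The members and lists were chosen with earlier results of these data known. All members, every other listed ribosomal protein gene or paralog with an exonic peak, the 10 copies with the most IP reads, the 5 nearest genes, and up to 3 genes by IP reads of each comparison list are named, except for results that are not reported here.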

Additional observations from a re-analysis of the deposited data

How the results depend on the processing

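Library totals moved most values. With uniquely aligned reads as totals every ratio was multiplied by 0.613, and with the reads within chromosome peaks by 0.472. The median over exonic mRNA peaks was then 8.86 and 6.82. With the latter totals Rps27rt fell to 0.980, with an interval that includes 1, and 9 of the 10 member peaks kept an interval above 1. Rps4x fell to 0.986 with uniquely aligned reads, at its peak and so over the gene, and to 0.760 with reads within peaks. When the eFDR, at 0.05, replaced the adjusted p, 0 member peaks passed, 1 of the 80 genes kept an exonic peak, and the median over exonic mRNA peaks was 11.9. Copies of the member peaks numbered 122 at 95% identity over at least 100 bases and 235 at 90% over that length. Counted separately, at 100% identity over at least 50 bases, they numbered 11, of which 5 were of Rpl31, which had none among the 122. The median of the member genes ranged from 7.29 to 18.5 over its alternatives. Rpl7a was 4221 and Rpl13 561 by the peak with the most IP reads alone, and Rpl7a 13.1 with only peaks of at least 10 input reads. A pseudocount of 1 and an adjusted p of 0.01 left every ratio within its counting interval and every count within 1.5 times. A floor of 1 read changed no peak of these genes, as none had an empty input. The alternative with RefSeq exons alone was not run, because exons of that annotation were not used here. No paired analysis was possible because each group holds 1 library.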

Other observations

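Other genes of the translation machinery can be set beside the ribosomal protein mRNAs. Each list is counted here over its genes opposite a chromosome strand that holds any peak. Of all protein-coding genes so placed, 2.71% had an exonic peak. Of 38 ribosome assembly genes 28 were so placed, and 2 of these (7.14%) had one. Rrp1, a nucleolar factor for the large subunit, had 6838 IP and 162 input reads, a ratio of 35.2 (30.1 to 41.4). Npm1, the nucleolar chaperone, had 5876 IP and 125 input reads over 3 peaks, a ratio of 39.2 (32.8 to 47.2). The Npm1 peaks with 1727 and 2386 IP reads shared 100% of their 50-base windows with another annotated gene. The Npm1 peak with 1763 IP and 69 input reads shared none, nor did the Rrp1 peak. Of 41 other TOP mRNAs and translation factors 30 were so placed, and 11 of these (36.7%) had a peak, with a median ratio of 11.7. A peak passed the adjusted p of 0.05 at 9 of the 11 genes, beside 89.8% of all exonic mRNA peaks. Among the 11, Eif4a2 had far more reads in the input, with 575 IP and 50303 input reads, a ratio of 0.00953. The elongation factor gene Eef1a1 had 67939 IP and 3823 input reads (14.8, 14.3 to 15.3), its neuronal relative Eef1a2 had a ratio of 12.6 (11.9 to 13.4), and Eef1b2 had 6.44 (5.92 to 7.01). At the Eef1a1 peaks 33.9% and 100% of windows were shared, and at those of Eef1a2 and Eef1b2 none.

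Of 78 genes for ribosomal proteins of the mitochondrion 60 were so placed, and 4 of these (6.67%) had a peak, with a median ratio of 6.45. Mrpl42 had 8.74 (7.82 to 9.79), Mrpl20 2.65 (2.40 to 2.92) and Mrpl51 7.37 (6.13 to 8.91). Of 94 respiratory chain genes 62 were so placed, and 4 of these (6.45%) had a peak, with a median of 5.65. The ratio was 3.58 (3.39 to 3.78) for Ndufb10, 6.88 (6.39 to 7.41) for Cox7a2l and 4.44 (4.14 to 4.75) for Ndufv3. These lists hold too few genes with a peak for their medians to be ordered against the members, and the differences were not tested.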
